A study of Rattus norvegicus with 89 samples.

Results

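The genes described here are 34 genes of cholesterol synthesis, the sterol-sensing SREBP system, fatty acid synthesis and sterol efflux, followed across the kidneys of 89 rats in 15 groups. They were taken by gene symbol from the 14217 named genes of the array, and 33 of the 34 had a probe set, 57 probe sets in all. Hmgcs1, the cytosolic HMG-CoA synthase, had none under its symbol and is not analysed here. All 33 passed the filter on low signal and are among the 11420 genes tested.

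The rats were Sprague-Dawley Crl:CD(SD) males and females, aged about 7 to 8 weeks at the start and acclimated for 6 days, and every animal gave 1 array from RNA of the apical parts of the kidneys. For 1 day or for 5 days, groups were dosed daily with saline, with one of the aminoglycosides gentamicin (labelled Gentamycin) and tobramycin, or with cisplatin, doxorubicin, cadmium or valproic acid, and 6 naive rats were left untreated. By the study's design 5 of these compounds are known nephrotoxicants, and the 2 others, saline and valproic acid, serve as controls. Groups held 5 to 7 rats of both sexes, 44 males and 45 females in total. The labels state no doses.

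Cholesterol is built from acetyl-CoA in a long chain of enzymes. Mevalonate is turned into isoprenoid units, these are joined into squalene, and squalene is closed into lanosterol and trimmed to cholesterol. Transcription of most of these enzymes is driven by SREBP2, and that of fatty acid synthesis by SREBP1c, both held in the endoplasmic reticulum by Scap and the Insig proteins while sterols are plentiful. When oxysterols accumulate, the LXR receptors (Nr1h3 encodes LXR alpha) raise the efflux pumps Abca1 and Abcg1. Kidney tubule cells make cholesterol for their extensive membranes and mostly burn, rather than store, fatty acids.

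Promoters are shown for 5 sterol enzymes, chosen after their values were seen, because they had the largest excess in males (Idi1, Hsd17b7, Dhcr7) or varied with Idi1 from rat to rat within groups (Cyp51, Msmo1). Each is the 250 bases before a RefSeq transcription start in GRCr8, written 5′ to 3′ on the strand of the gene. For Hsd17b7 the annotated gene reaches into the window, to chr13:84722810, so part of that window lies inside the gene. Capitals mark CCAAT or GGGCGG, or the reverse complement of either. The windows are chr17:66547525-66547774 on the minus strand for Idi1, chr13:84722755-84723004 on the minus strand for Hsd17b7, chr1:208444184-208444433 on the plus strand for Dhcr7, chr4:30991443-30991692 on the plus strand for Cyp51 and chr16:29746863-29747112 on the plus strand for Msmo1.
Idi1: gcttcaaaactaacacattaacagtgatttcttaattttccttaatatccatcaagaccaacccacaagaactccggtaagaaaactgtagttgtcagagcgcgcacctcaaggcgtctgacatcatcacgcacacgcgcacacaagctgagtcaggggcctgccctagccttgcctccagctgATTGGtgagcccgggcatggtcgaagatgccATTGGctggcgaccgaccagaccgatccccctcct
Hsd17b7: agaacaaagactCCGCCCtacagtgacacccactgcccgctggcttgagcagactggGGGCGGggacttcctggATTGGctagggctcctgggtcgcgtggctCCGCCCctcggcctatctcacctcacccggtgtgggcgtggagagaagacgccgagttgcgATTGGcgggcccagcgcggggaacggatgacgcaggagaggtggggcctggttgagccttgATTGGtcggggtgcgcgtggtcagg
Dhcr7: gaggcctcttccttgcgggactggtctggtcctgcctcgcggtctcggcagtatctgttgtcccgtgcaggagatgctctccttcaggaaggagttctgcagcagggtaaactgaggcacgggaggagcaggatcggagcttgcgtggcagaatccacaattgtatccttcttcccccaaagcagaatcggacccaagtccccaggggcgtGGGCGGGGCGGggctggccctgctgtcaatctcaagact
Cyp51: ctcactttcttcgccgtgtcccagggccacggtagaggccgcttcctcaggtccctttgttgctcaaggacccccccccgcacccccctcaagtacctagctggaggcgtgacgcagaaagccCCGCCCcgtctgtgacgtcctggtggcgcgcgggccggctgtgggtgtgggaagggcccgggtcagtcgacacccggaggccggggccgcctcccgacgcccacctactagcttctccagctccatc
Msmo1: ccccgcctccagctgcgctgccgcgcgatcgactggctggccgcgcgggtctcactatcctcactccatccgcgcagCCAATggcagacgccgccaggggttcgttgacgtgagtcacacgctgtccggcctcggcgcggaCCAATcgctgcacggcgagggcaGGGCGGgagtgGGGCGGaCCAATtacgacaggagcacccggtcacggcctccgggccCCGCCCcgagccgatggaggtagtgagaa
RefSeq windows were found for 26 of the 34 genes, 27 windows in all because Srebf1 has 2. The CCAAT box, bound by NF-Y, stood in 19 of the 27 (70.4%), against 34.0% of all 33469 promoter windows of the same length. The GC box GGGCGG, bound by Sp1, stood in 22 (81.5%), against 30.5% of all. Idi1 held 2 CCAAT boxes and no GC box, Dhcr7 held 2 overlapping GC boxes and no CCAAT box, and Hsd17b7 held 3 of each. The classical sterol response element of SREBP and the direct-repeat LXR element, searched by 1 consensus each, were in 0 of the 27 windows, and in 0.23% and 0.003% of all windows. Both strands were searched, and these letters are a description of the window only.

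Signals below are the deposited intensities after scaling each array to a common trimmed mean of 180.9 (91.5 to 352 before scaling). Changes are differences of log2(signal + 16), tested with limma in a fit on all 89 arrays and adjusted over the 11420 genes. A signal of 33.1 was the limit of the filter on low values. Of 7 kidney markers measured, 6 were above the limit in every rat (Umod from 4371, Slc12a3 from 315), and Kl, dimmer, was under it in 3 females. Of the adrenal cortex markers 0 of the 4 with a probe set passed the filter. Adipocyte markers were present and uneven: a score over Adipoq, Plin1, Cfd and Fabp4 was 7.51 ± 0.87 (SD, n = 45) in females and 6.45 ± 0.63 (n = 44) in males, on the log2 scale. Cidec, also tested as an adipocyte marker, is not in the score and went the other way. Its mean signal was 134 in females and 555 in males, so the score stands for the markers in it only. The labels do not say whether the rats of a group shared litters or days. In whole tissue, fewer cells of a type and less RNA per cell cannot be told apart. The treatment field of 5 arrays was empty or named another treatment than the title, and the titles set their groups.

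Treatment with the compounds left most of these genes close to saline of the same day. Of 396 gene-by-comparison values (33 genes in 12 comparisons), 341 (86.1%) were smaller than 0.25 in log2. The standard errors of the 396 ran from 0.063 to 0.745 with a median of 0.128. The same share was not counted over all genes tested, so it does not set these genes apart. A change passed the test in 2 of the 396, both for Acly, the ATP citrate lyase that supplies cytosolic acetyl-CoA to both pathways. A moderated F test over all 12 comparisons called 3 of the 33 genes, Dhcr7, Fdft1 and Acly, against 3.36% of all genes tested. The 6 comparisons of a day share their saline rats, so their values are given side by side only.

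**Figure D1:**
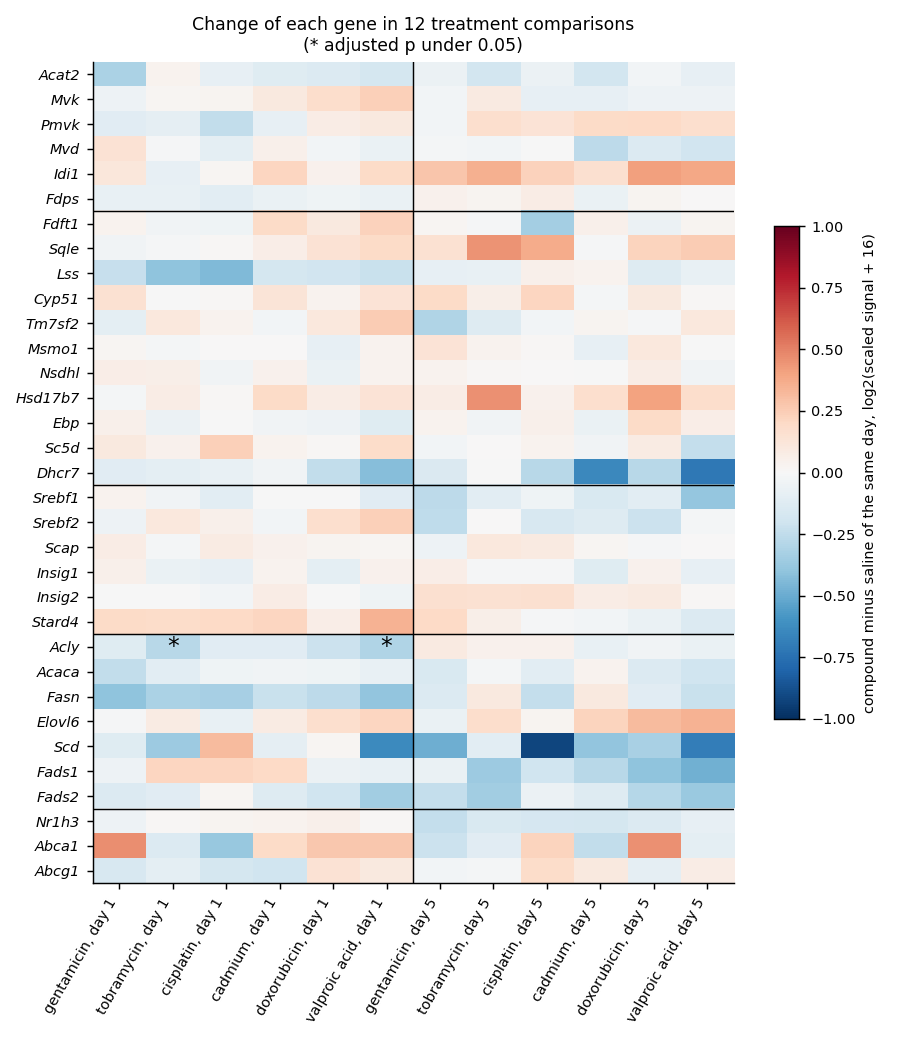
Change of each of 33 genes (rows, in the order of their roles, separated by lines) in 12 treatment comparisons (columns, day 1 left and day 5 right), as log2(scaled signal + 16) in compound minus saline rats of the same day. Asterisks mark the 2 values with adjusted p under 0.05, both of Acly, and the deepest blue cell is Scd after 5 days of cisplatin (-0.91, not called).

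In detail, gentamicin, an aminoglycoside antibiotic taken up by the proximal tubule, changed 0 of 33 genes at day 1 (0.123% of all genes tested) and 0 at day 5 (0.0175%). Unadjusted p was under 0.05 for 3 genes on each day (3.22% and 10.1% of all genes). Tobramycin, a second aminoglycoside, changed 1 of 33 at day 1 (0.517% of all genes) and 0 at day 5 (0% of all genes), with 2 and 3 genes at unadjusted p under 0.05 (7.07% and 7.93%). Cisplatin, a platinum drug that crosslinks DNA, changed 0 genes on day 1 (0%) and 0 on day 5 (0.412%), with 1 and 3 at the unadjusted level (4.51% and 12.1%). Cadmium, a heavy metal stored in the tubule, changed 0 on day 1 (0.0525%) and 0 on day 5 (0.0613%), with 2 and 2 (4.42% and 6.07%). Doxorubicin, an anthracycline, changed 0 on day 1 (0.0525%) and 0 on day 5 (0.377%), with 1 and 4 (7.84% and 9.92%). Valproic acid, an anticonvulsant and histone deacetylase inhibitor, changed 1 on day 1 (0.228%) and 0 on day 5 (0.149%), with 7 and 5 (9.42% and 7.46%). The median change of the 33 genes lay between -0.05 and 0.03 in the 12 comparisons, and that of all genes between -0.01 and 0.02.

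Among the mevalonate enzymes, 0 of the 6 measured passed in a treatment comparison. Idi1, the isomerase that makes dimethylallyl diphosphate, was above saline in 11 of the 12 comparisons. Its largest difference was 0.41 (SE 0.15, adjusted p = 0.248) after 5 days of doxorubicin, with all 5 rats above the saline rats of their sex on average. Saline males at day 5 had Idi1 signals of 379 ± 68.9 (SD, n = 3) and females 170 ± 53.2 (n = 2), and the 2 doxorubicin males had 466 and 728. After 5 days of valproic acid Idi1 was 0.38 above saline (adjusted p = 0.371), and after 5 days of tobramycin 0.35 (adjusted p = 0.527), each in 6 of 6 rats. The remaining 5 enzymes of this stretch (Acat2, Mvk, Pmvk, Mvd and Fdps) stayed between -0.32 and 0.24 in all 12 comparisons.

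The lowest group means of Dhcr7 were those of rats given valproic acid or cadmium for 5 days. Dhcr7 encodes the 7-dehydrocholesterol reductase of the last step to cholesterol. Saline males at day 5 had Dhcr7 signals of 695, 843 and 866, and saline females 267 and 348. After valproic acid the males had 389, 410 and 516 and the females 168, 190 and 298. After cadmium the males had 415, 430 and 583 and the females 133.5, 266 and 287. In both groups all 3 males lay below all 3 saline males, whereas the females overlapped with the 2 saline females. The difference from saline was -0.71 (95% confidence interval -1.06 to -0.37, adjusted p = 0.055) for valproic acid and -0.64 (-0.98 to -0.30, adjusted p = 0.168) for cadmium, lower in 6 of 6 rats each. Neither single comparison passed, and Dhcr7 was called by the F test over all comparisons (adjusted p = 0.0107).

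Dhcr7 was at or below saline in all 12 comparisons, from -0.71 to -0.0004, and after 1 day of valproic acid the difference was -0.42 (SE 0.16, adjusted p = 0.337). Of 11 fits that left out 1 rat, the valproic acid difference at day 5 passed in 2, without the treated female 7F159 (-0.80, adjusted p = 0.0284) or the saline female 1F105 (-0.82, adjusted p = 0.0191), and adjusted p reached 0.246 in the other 9. Without scaling it was -0.62 (adjusted p = 1.00). With saline and naive rats pooled as 18 controls it was -0.80 (adjusted p = 6.18e-05), and cadmium at day 5 was -0.73 (adjusted p = 0.000378). The log2 ratio of the 3′ to the 5′ Gapdh probe set, a measure of RNA integrity, was 0.26, 0.29, 0.52 and 0.59 in 4 saline rats of day 5 and 1.58 in the fifth, the female 1F106. That rat is 1 of the 2 saline females in every comparison of day 5, for all genes. The log2 ratio was 0.33 to 1.04 after valproic acid and 0.15 to 1.45 after cadmium, with the female 5F140 highest. With that log2 ratio as a covariate the valproic acid difference was -0.74 (adjusted p = 0.0407). Without 1F106 it was -0.73 (adjusted p = 0.115), and without 5F140 the cadmium difference was -0.50 (adjusted p = 0.31).

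**Figure D2:**
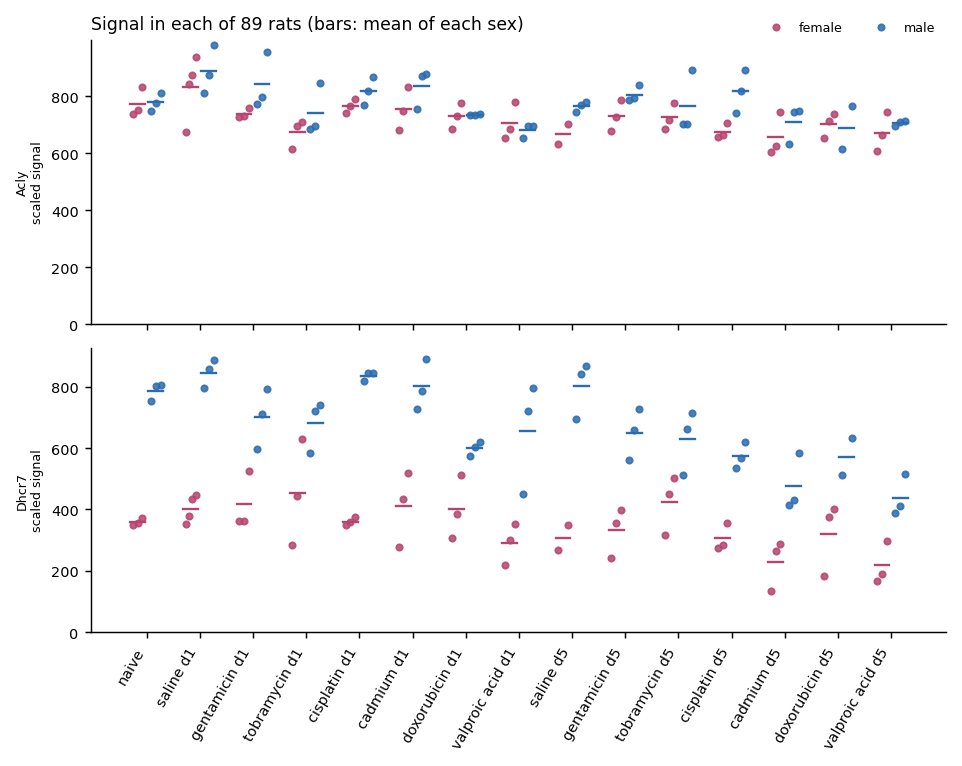
Scaled signal of Acly (top) and Dhcr7 (bottom) in each of 89 rats, by group (d1, 1 day; d5, 5 days), from 0; points are rats, females left and males right of each group, and bars are the mean of each sex. Acly is highest in saline rats of day 1 (674 to 980), and Dhcr7 males after 5 days of valproic acid (389 to 516) lie below the saline males of day 5 (695 to 866).

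Fdft1, the squalene synthase that commits isoprenoids to sterols, had its lowest group mean after 5 days of cisplatin. Saline males of day 5 had signals of 650 ± 104.2 (SD, n = 3) and females 1350 ± 63.5 (n = 2), against 528 ± 94.0 and 1039 ± 150 (n = 3 each) after cisplatin. All 3 cisplatin females lay below both saline females, and the males overlapped. The difference was -0.34 (SE 0.095, adjusted p = 0.0925), lower in 6 of 6 rats. Of 11 fits that left out 1 rat, the difference passed in 1, without the cisplatin male 3M23 (-0.40, adjusted p = 0.0273). Over the 11 it ran from -0.40 to -0.28, with adjusted p of up to 0.383. Under 11 alternatives of processing and controls it ran from -0.34 to -0.19 and did not pass, with adjusted p of up to 0.938. The F test over all comparisons gave Fdft1 an adjusted p of 0.0137.

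Lss, which closes squalene epoxide into lanosterol, had the largest difference of any of the genes in tobramycin and cisplatin rats of day 1. Its signal was 210 at the median of saline rats of day 1 (160 to 277, n = 7), 154.95 after tobramycin (97.7 to 226, n = 6) and 159.2 after cisplatin (109 to 186, n = 6). The ranges overlapped, although the medians of both treated groups lay below every saline rat. The differences were -0.40 (adjusted p = 0.265) and -0.44 (adjusted p = 0.989), lower in 6 of 6 rats. These comparisons share saline rats in which Lss was 0.41 above naive rats (adjusted p = 0.581).

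Sqle, the squalene epoxidase, and Hsd17b7, a 3-keto-sterol reductase, were higher than in saline in 6 of 6 rats after 5 days of tobramycin, and neither passed. Tobramycin males had Sqle signals of 155.8 ± 15.01 and females 117 ± 10.2 (SD, n = 3 each), against 123.02 ± 16.7 (n = 3) and 73.2 ± 19.2 (n = 2) in saline rats. All 6 tobramycin rats lay above the saline mean of their sex, a difference of 0.45 (SE 0.17, adjusted p = 0.499). Hsd17b7 differed by 0.45 (SE 0.13, adjusted p = 0.396) after tobramycin, the largest difference of that comparison, and by 0.40 (adjusted p = 0.192) after 5 days of doxorubicin, in 5 of 5 rats. For Sqle the range over the 12 comparisons was -0.04 to 0.45, and for Cyp51, the lanosterol demethylase, it was -0.02 to 0.22.

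Of the 6 genes of the SREBP system and sterol transport 0 passed in a treatment comparison. Srebf1, which encodes SREBP1, ran from -0.38 (5 days of valproic acid, adjusted p = 0.383) to 0.04 over the 12 comparisons. Srebf2 ran from -0.25 to 0.24 with a smallest adjusted p of 0.573. Insig1, the sterol-regulated anchor of the SREBP complex, ran from -0.12 to 0.07, with group means between 236 ± 42.2 (SD, n = 6, cadmium at day 5) and 281 ± 60.9 (n = 6, valproic acid at day 1). Stard4, a cytosolic sterol carrier, was 0.35 above saline after 1 day of valproic acid (adjusted p = 0.158).

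Acly fell after 1 day of tobramycin and after 1 day of valproic acid. Saline rats of day 1 had Acly signals from 674 to 980 with a median of 875 (n = 7). Tobramycin rats had 615 to 845 with a median of 696, and valproic acid rats 653 to 779 with a median of 689 (n = 6 each). Of the saline rats 6 of 7 lay above all valproic acid rats, and the remaining one, the female 1F101, lay within both treated ranges. The change was -0.27 (SE 0.066, adjusted p = 0.0229) for tobramycin and -0.30 (SE 0.066, adjusted p = 0.0172) for valproic acid, lower in 6 of 6 rats each, where 0.123% and 0.131% of all genes fell.

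Both calls rest on the same 7 saline rats, whose mean of 857 ± 98.6 (SD) was the highest of the 15 groups. Naive rats had 777 ± 37.9 (n = 6) and saline rats of day 5 had 726 ± 61.1 (n = 5). The Acly difference between saline of day 5 and of day 1 was -0.25 (unadjusted p = 0.000651, adjusted p = 0.572). Against saline and naive rats pooled, the tobramycin difference was -0.16 (adjusted p = 0.436) and that of valproic acid -0.18 (adjusted p = 0.173). Fitted on the 2 groups alone, the adjusted p values were 0.323 and 0.29 (0.0613% and 0.0788% of all genes called). Leaving out 1 rat ended the tobramycin call for 7 rats (1M1, 1F102, 1F103, 4F129, 4F130, 4M28 and 4M30) and the valproic acid call for 4 (1M1, 1F102, 1F103 and 7M56), with adjusted p of up to 0.119 and 0.0954. In the other 4 comparisons of day 1 Acly also differed from saline by -0.22 to -0.11 and did not pass.

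Fasn, the fatty acid synthase, was below saline in 10 of 12 comparisons, from -0.40 (1 day of gentamicin, adjusted p = 1.00) to 0.09. Its signal in saline rats of day 1 was 253 to 875 with a median of 445, and the widest of all groups. After 1 day of cadmium the largest difference of any of the genes was that of Fasn, at -0.22 (SE 0.18, adjusted p = 0.999).

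Scd, the stearoyl-CoA desaturase that makes oleate, had the largest differences of 3 comparisons, and its signal was under the limit of 33.1 in 52 of 89 rats. After 5 days of cisplatin all 6 rats were under it (1.34 to 32.1), against 2 of 5 saline rats (17.04 to 80.0), with a difference of -0.91 (SE 0.71, adjusted p = 0.647). After 5 days of gentamicin the difference was -0.49 (adjusted p = 0.844), and after 1 day of valproic acid -0.64 (adjusted p = 0.802). The confidence interval of the cisplatin difference reached from -2.33 to 0.50, so that both a lower and a higher level lay within it. The adipocyte score was 6.54 ± 0.70 in cisplatin and 7.18 ± 0.84 in saline rats of day 5.

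For sterol efflux, 0 of 3 genes passed in a treatment comparison. Abca1, the pump that loads cholesterol on apolipoprotein A1, varied widely among rats, and had the largest difference after 1 day of gentamicin (0.46, SE 0.32, adjusted p = 1.00), 1 day of doxorubicin (0.27, adjusted p = 0.883) and 5 days of doxorubicin (0.46, adjusted p = 0.706). Its signal was 45.2 to 303 in saline rats of day 1 with a median of 127, and 56.7 to 348 in gentamicin rats with a median of 193. Nr1h3 ran from -0.24 to 0.05 over the 12 comparisons, with group means of 416 to 503.

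For the difference of each compound's effect between day 5 and day 1, 0 of 33 genes passed in each of the 6 compounds (0% of all genes for gentamicin, tobramycin, cadmium and valproic acid, 0.00876% for cisplatin and 0.0525% for doxorubicin). At unadjusted p under 0.05 there were 1 gene for gentamicin (2.4% of all genes), 5 for tobramycin (4.85%), 2 for cisplatin (10.2%), 1 for cadmium (3.25%), 0 for doxorubicin (6.18%) and 3 for valproic acid (5.6%). Gentamicin and tobramycin, compared directly as a pair of aminoglycosides, differed for 0 of 33 at day 1 (0.0263% of all genes) and 0 at day 5 (0%), with 2 and 1 at unadjusted p under 0.05 (6.57% and 5.26%). The 33 differences between them ran from -0.35 to 0.60 at day 1 and from -0.38 to 0.29 at day 5, with median standard errors of 0.12. Saline differed from naive rats for 0 of 33 on either day (0% of all genes), with 2 and 0 at unadjusted p under 0.05 (6.76% and 9.3%), and saline of day 5 from saline of day 1 for 0 of 33 (0%), with 1 (7.79%).

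Between the sexes the same genes differed widely. In males 16 of 33 were higher and 11 lower than in females, 27 called in all, against 64.2% (67.4% at unadjusted p under 0.05) of all genes tested (23.9% higher and 40.4% lower). The median difference was 0.10 for the 33 genes and -0.05 for all genes. With a difference of at least 1.5-fold there were 8 of 33, 4 higher and 4 lower, against 5.62% of all genes (3.25% higher and 2.37% lower). Of all called genes 37.2% were higher in males, and 56.9% without scaling of the arrays, where the 33 genes gave 14 higher and 7 lower. Among the 18 control rats alone 12 of the 33 were called (23.6% of all genes).

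**Figure D3:**
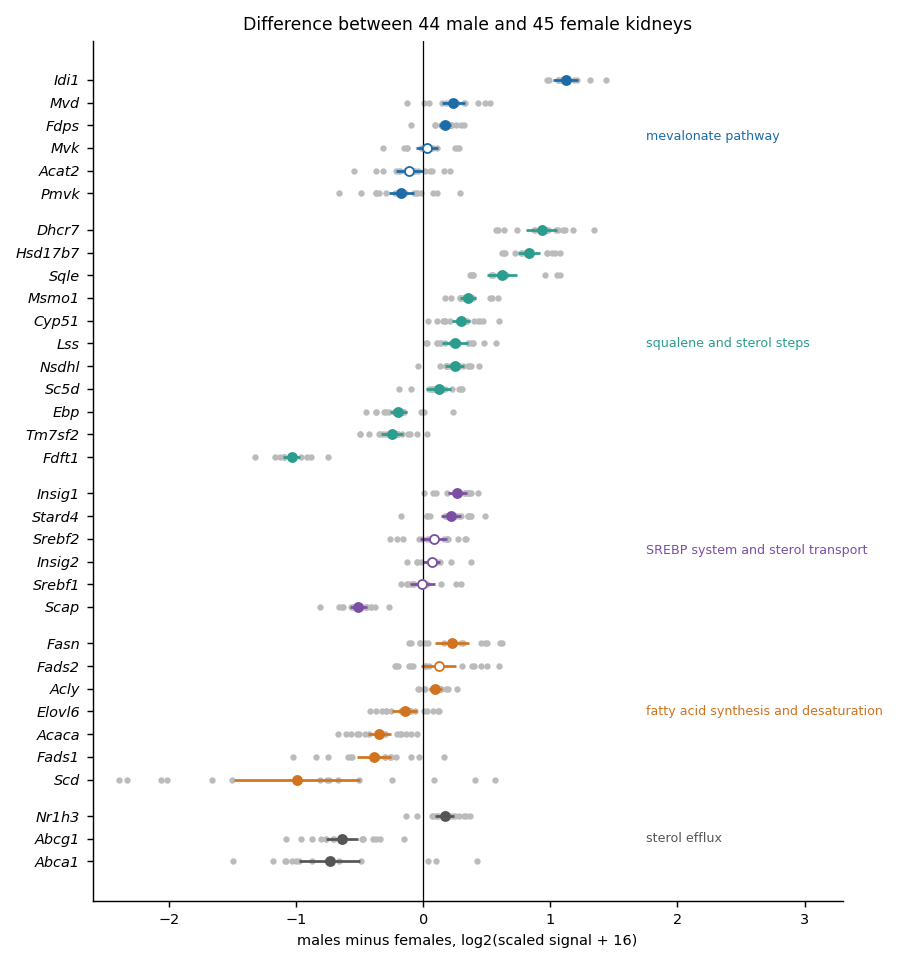
Difference between males and females for each of 33 genes, as log2(scaled signal + 16), grouped by role. Large points with bars are the fitted difference with its 95% confidence interval (filled where adjusted p is under 0.05), and grey points the difference within each of 15 groups. Idi1 lies at 1.12 and Fdft1 at -1.03, with every group on the same side.

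In the mevalonate stretch 3 of 6 genes were higher in males, 1 was lower and 2 did not pass. Idi1 had signals of 301 to 728 in males with a median of 428, and of 131.15 to 304 in females with a median of 199. Of the males 43 of 44 lay above every female, in all 15 groups the male mean was higher, and the difference was 1.12 (SE 0.049, adjusted p = 1.7e-34), or 2.18-fold. A second Idi1 probe set gave 0.83. Mvd, the diphosphomevalonate decarboxylase (0.24), and Fdps, the farnesyl diphosphate synthase (0.17), were higher in males, and Pmvk, the phosphomevalonate kinase, was lower (-0.17). Acat2 (-0.11, adjusted p = 0.0667) and Mvk (0.03, adjusted p = 0.545) did not pass.

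Of the 11 genes from squalene to cholesterol, 8 were higher in males and 3 lower. Fdft1 ran against its neighbours in the chain. Its signals were 866 to 1697 in females with a median of 1297, and 438 to 796 in males with a median of 616. All 45 females lay above every male, in all 15 groups, and the difference was -1.03 (SE 0.033, adjusted p = 3.53e-43), 2.05-fold higher in females. The second probe set gave -0.86.

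**Figure D4:**
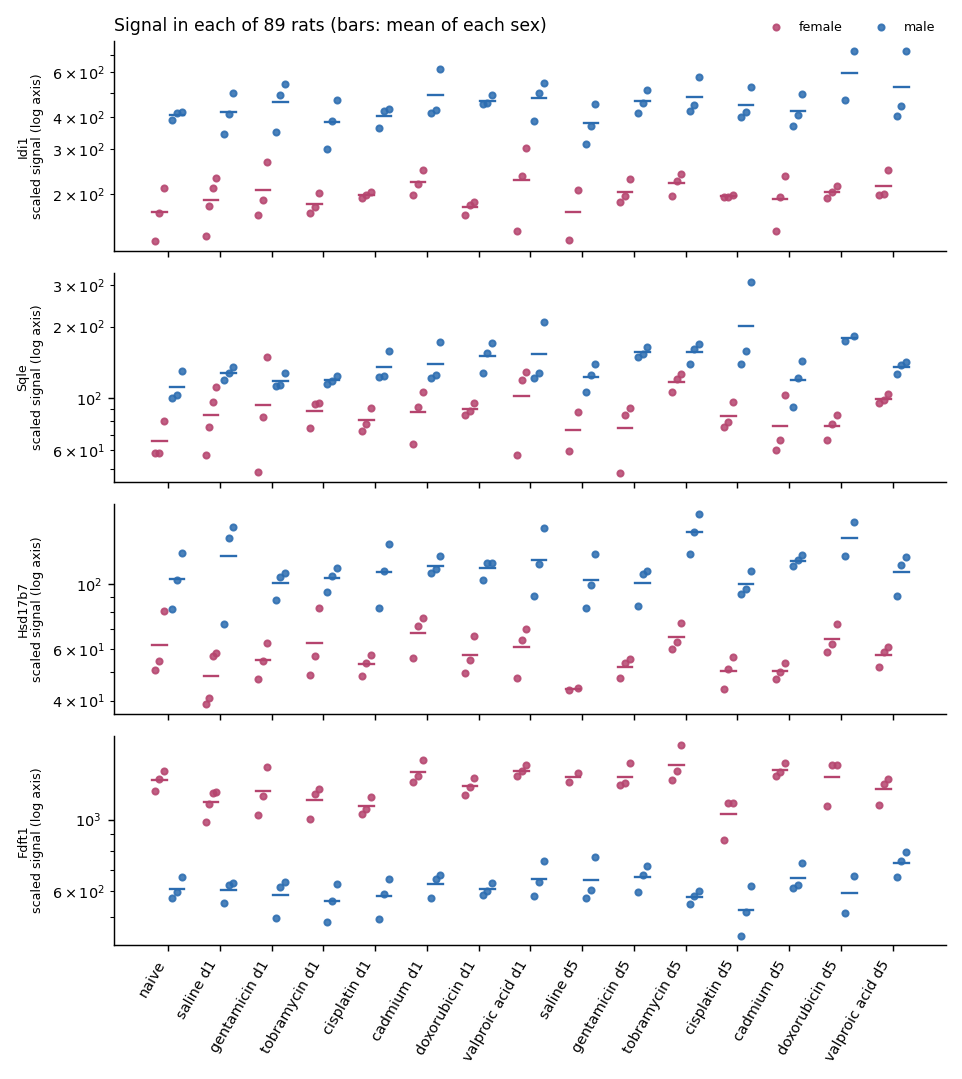
Scaled signal (log axes) of Idi1, Sqle, Hsd17b7 and Fdft1 in each of 89 rats by group (d1, 1 day; d5, 5 days); points are rats, females left and males right of each group, and bars are the mean of each sex. Idi1, Sqle and Hsd17b7 are higher in the males of every group, and Fdft1 is higher in the females, with 45 of 45 above every male.

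Dhcr7 and Hsd17b7 were among the genes higher in males in all 15 groups. Dhcr7 had signals of 389 to 890 in males (median 702) and 133.5 to 631 in females (median 355), and 26 males lay above every female. The difference was 0.93 (SE 0.060, adjusted p = 6.66e-24). Hsd17b7 had 73.1 to 173 in males (median 111.7) and 38.9 to 82.4 in females (median 55.2), with 42 males above every female and a difference of 0.83 (SE 0.044, adjusted p = 3.73e-29). Sqle had 91.4 to 307 in males (median 128.8) and 48.3 to 148.05 in females (median 84.8), a difference of 0.62 (SE 0.058, adjusted p = 9.86e-16) that was likewise seen in 15 of 15 groups. Here the ranges overlapped, with 14 males above every female.

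The other enzymes of this stretch differed less. The sterol methyl oxidase Msmo1 (0.35), Cyp51 (0.30), Lss (0.25), the decarboxylating dehydrogenase Nsdhl (0.25) and the desaturase Sc5d (0.12) were higher in males. Msmo1, Cyp51 and Lss were so in all 15 groups, Nsdhl in 14 and Sc5d in 13. The sterol reductase Tm7sf2 (-0.24) and the isomerase Ebp (-0.20) were lower in males, in 14 and 13 groups. Nsdhl and Ebp both lie on the X chromosome, and their differences had opposite signs.

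Of the 6 genes of the SREBP system 2 were higher in males, 1 was lower and 3 did not pass. Insig1 was higher (0.27, SE 0.038, adjusted p = 3.62e-09), with signals of 234 to 389 in males (median 277) and 160 to 350 in females (median 230), and so was Stard4 (0.22), for which 1 further probe set gave 0.17 and another 0.01 (adjusted p = 0.863). Scap, the escort of SREBP, was lower: its signals were 364 to 575 in females (median 464) and 211 to 377 in males (median 320). Of the females 42 of 45 lay above every male, and the difference was -0.51 (SE 0.033, adjusted p = 1.13e-23). Its second, dimmer probe set gave -0.08 (adjusted p = 0.351), so the Scap probe sets disagree in call. Srebf1 (-0.01, 95% confidence interval -0.11 to 0.09, adjusted p = 0.931), Srebf2 (0.08, -0.02 to 0.19, adjusted p = 0.175) and Insig2 (0.07, adjusted p = 0.0728) did not pass.

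In fatty acid synthesis 2 of 7 genes were higher in males and 4 lower. Fasn (0.23, SE 0.068, adjusted p = 0.00231) and Acly (0.10, SE 0.025, adjusted p = 0.000567) were higher. Fasn was 270 to 599 in males (median 394) and 228 to 875 in females (median 305), so the highest females exceeded every male. Acaca, the acetyl-CoA carboxylase, was lower in males in all 15 groups (-0.35), while its second, dimmer probe set gave 0.06 (adjusted p = 0.417). The desaturase Fads1 (-0.39) and the elongase Elovl6 (-0.14) were lower, and Fads2 (0.12, adjusted p = 0.109) did not pass.

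Scd was lower in males (-0.99, SE 0.25, adjusted p = 0.000398), with group differences from -2.40 to 0.57. Its signal ran from 2.17 to 791 in females (median 42.1) and from 1.11 to 416 in males (median 11.5), and lay under the limit in 19 of 45 females and 33 of 44 males. Most adipocyte markers tested differed in the same direction. Of 5 adipocyte markers tested 4 were lower in males (Cfd -1.53, Plin1 -1.15, Fabp4 -0.90, Adipoq -0.64) and 1, Cidec, was higher (1.97), and Ucp1 of brown fat was lower (-1.67). With the adipocyte score of each rat as a covariate the Scd difference was 0.16 (adjusted p = 0.579), that of Acaca -0.18, that of Fasn 0.49 and that of Idi1 1.14. The slope on the score passed for 3 of the 33 genes, Scd (1.09), Fasn (0.25) and Acaca (0.15), against 0.604% of all genes.

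**Figure D5:**
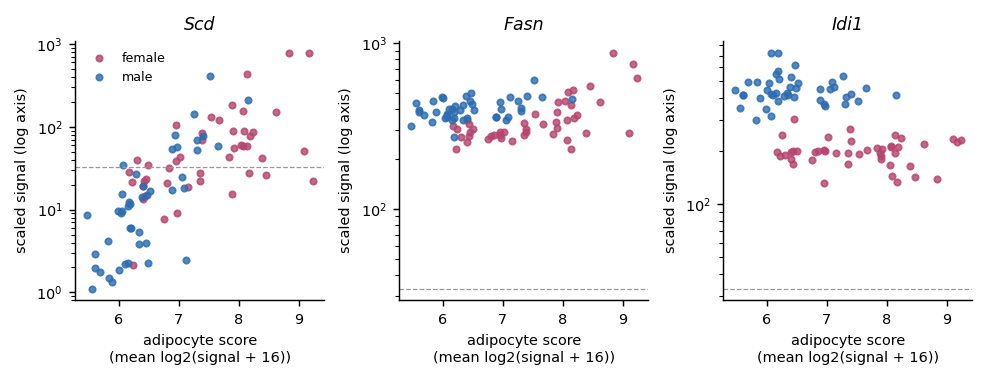
Scaled signal (log axis) of Scd, Fasn and Idi1 against the adipocyte score, the mean log2(signal + 16) of Adipoq, Plin1, Cfd and Fabp4, in each of 89 rats; the dashed line is the limit of 33.1. Scd rises with the score and lies mostly under the limit in males, the highest Fasn signals (to 875) are in females of high score, and Idi1 separates the sexes along the whole range.

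All 3 efflux genes differed. Abca1 was lower in males (-0.73, SE 0.12, adjusted p = 2.17e-07), with signals of 34.7 to 218 in males (median 121.5) and 67.2 to 348 in females (median 199), in 12 of 15 groups, and all 4 of its probe sets were lower. Abcg1 was lower in all 15 groups (-0.64, SE 0.064, adjusted p = 2.11e-14), at 156.01 to 392 in males (median 227) and 246 to 592 in females (median 374). A second probe set gave -0.44 and the third, dimmest one -0.02 (adjusted p = 0.834). Nr1h3 was higher in males (0.17, SE 0.037, adjusted p = 5.22e-05), in 13 of 15 groups, with largely overlapping signals of 382 to 607 and 332 to 626. For macrophage markers 0 of 9 tested differed between the sexes.

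Treatment effects were not found to depend on sex: in a fit with a term for each group and sex, 0 of 33 genes passed in each of the 12 comparisons (0% to 0.0438% of all genes). At unadjusted p under 0.05 there were 27 of the 396 values (6.82%), against 7.46% over all genes. Without the saline female 1F105 of day 5, which leaves 1 female in that group, 10 of the 396 values passed, against 2.63% over all genes; the lone female is then assumed to vary like the rats of the other groups.

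Among rats of the same group and sex, a few of the genes varied together. Deviations from the mean of each group and sex were correlated over 89 rats for 10 pairs, 4 of them (those with Sqle) chosen after the data were seen in place of pairs with Hmgcs1, with p from 100000 permutations within group and sex and adjusted over the 10. Of the pairs with Sqle, Idi1 gave the highest correlation (Pearson r = 0.605, adjusted permutation p = 1e-04; Spearman rho = 0.545, adjusted permutation p = 0.00015), with r of 0.40 in males and 0.77 in females. Insig1 and Sqle gave r = 0.497 (adjusted permutation p = 0.0016) and rho = 0.472. Without the 2 rats farthest from the median of the first gene, r was 0.589 and 0.485. The unadjusted p of Idi1 and Sqle, 1e-05, is the smallest these permutations can give.

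Fdft1 and Sqle did not pass (r = 0.05, adjusted permutation p = 0.809; rho = 0.04), nor did Srebf2 and Sqle (r = 0.08, adjusted permutation p = 0.583; rho = 0.12). With the Gapdh log2 ratio as a covariate Srebf2 and Sqle passed (r = 0.30, adjusted permutation p = 0.00906; rho = 0.337, adjusted permutation p = 0.0089). Srebf1 and Fasn gave r = 0.323 (adjusted permutation p = 0.0381), with rho = 0.269 (adjusted permutation p = 0.0644) and r = 0.249 without the rats 1M4 and 1F101. It did not pass with the Gapdh covariate (adjusted permutation p = 0.0554) or without the 5 arrays of uncertain treatment (adjusted permutation p = 0.153). Srebf1 and Scd (r = 0.18, adjusted permutation p = 0.304; rho = 0.18), Nr1h3 and Abca1 (r = 0.14, adjusted permutation p = 0.288; rho = 0.15) and Abcg1 and Abca1 (r = 0.02, adjusted permutation p = 0.87; rho = 0.01) did not pass. The adipocyte score went with Scd (r = 0.68, adjusted permutation p = 1e-04; rho = 0.669; 0.626 without 2 rats; 0.83 in males and 0.58 in females) and with Fasn (r = 0.542, adjusted permutation p = 0.000767; rho = 0.457; 0.429 without 2 rats; 0.42 and 0.61). The whole-array scaling enters every pair, and without it 9 of 10 pairs pass.

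Described without a test, Idi1, Sqle, Cyp51 and Msmo1 had pairwise r of 0.45 to 0.60 over the 89 rats. These pairs were picked as among the highest of the cholesterol enzymes. The median r of each of the 4 with the 16 other measured cholesterol enzymes was only 0.06 to 0.12. The gene most like Sqle among all tested was Idi1, the one most like Fasn was Acaca (r = 0.69), and the one most like Scd was Thrsp (r = 0.76), a lipogenic gene abundant in fat. For Insig1, 7 of the 32 other genes of the set were among its 100 most alike of the 11420 genes tested. This was the highest such count in the set, followed by 5 for Cyp51, and most genes had 0 or 1. Of the other genes of the SREBP system, Srebf1 had 1, and Srebf2, Scap, Insig2 and Stard4 had 0. For Fdft1 the most alike gene was Nomo1 (r = 0.57), and for Dhcr7 it was the amino acid transporter Slc38a3 (r = 0.61).

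Of 40 further genes of the same pathways, 33 had a probe set and 30 were tested. In the treatment comparisons 1 passed, in a comparison that called 0.412% of all genes. Lpl, the lipoprotein lipase, fell after 5 days of cisplatin, with signals of 591 to 2183 (median 1144, n = 6) against 990 to 2423 (median 1953, n = 5) in saline rats and a change of -0.68 (SE 0.17, adjusted p = 0.0445), lower in 5 of 6 rats; fitted on the 2 groups alone the adjusted p was 0.391. The adipocyte score was 6.54 ± 0.70 (SD) in these cisplatin rats and 7.18 ± 0.84 in the saline rats, and its relation to the Lpl change was not tested. Between the sexes 5 of the 30 were higher in males and 13 lower, against 23.9% and 40.4% of all genes. The 5 with the smallest adjusted p were Lpl (-0.98), the carbohydrate-response factor Mlxipl (0.65), the desaturase Scd2 (-1.27), the elongase Elovl1 (0.38) and the sterol hydroxylase Cyp27a1 (-0.40). Scd2 was 468 to 1479 in females (median 925) and 197 to 856 in males (median 346), and was lower in males in all 15 groups.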

How the data were processed

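Arrays (Affymetrix, 1 colour, 31099 probe sets) were hybridised with kidney RNA, 1 for each of 89 rats. The deposited values are linear probe set intensities made by the authors with MAS5, per the submitters' processing notes; the MAS5 version and scaling target are not stated there. Each array was scaled to a common trimmed mean (2% trimmed at each end), and log2(intensity + 16) was analysed. Probe sets with signals above 33.1, the 40th percentile, in at least 5 arrays were kept, and the brightest probe set stood for a gene.

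limma 3.58.1 in R 4.3.3 fitted all arrays with group and sex, and p-values were adjusted by Benjamini-Hochberg over 11420 genes with a threshold of 0.05. They measure the spread between rats. The fit was tested on simulated data. Figures and promoter searches used Python 3.11.15 and matplotlib 3.10.9.

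The members and lists were chosen with earlier results of these data known. Named genes were those called, the member with the largest change in each comparison, a fixed set of regulators and enzymes, the 5 with the smallest adjusted p between the sexes, and genes whose probe sets disagree. Groups were taken from the sample titles. Alternatives changed the fitted arrays, scaling, filter, added constant, covariates and control rats, and left out each rat in turn.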

Additional observations from a re-analysis of the deposited data

Results flagged for a closer look

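In 15 of the genes, each of the 15 groups was examined for a rat far from the others, by the gap to the nearest rat as a share of the group's range on the log2 scale (Dixon's 95% value). Of 225 gene-by-group sets 8 (3.6%) held such a rat. Dixon's value gives about 1 in 20 for rats of a single population. Males and females of a group were examined together, so that rate need not hold for genes that differ between the sexes. A rat far from others of its sex can be missed there. Srebf1 was 245.5 in the doxorubicin male 6M49 at day 5, against 186.66 to 201.14 in the other rats. Scd was 415.74 in the tobramycin male 4M29 at day 1 (2.45 to 39.01 in the others) and 773.11 in the tobramycin female 4F131 at day 5 (1.86 to 43.47). Abca1 was 34.69 in the cisplatin male 3M23 at day 5 (189.25 to 287.56) and 85.55 in the saline female 1F105 at day 5 (149.78 to 161.02). Acly was 957.52 in the gentamicin male 2M10 at day 1 (726.38 to 797.91) and 779.2 in the valproic acid female 7F156 at day 1 (653.33 to 697.42). Lss was 130.98 in the valproic acid female 7F159 at day 5 (175.45 to 204.57). The rats 3M23, 1F105 and 7F159 are also among those whose omission changes a call of Fdft1 or Dhcr7.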

How the results depend on the processing

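The count of genes changed by tobramycin at day 1 and by valproic acid at day 1, 1 each (Acly), was 0 when only the 2 groups were fitted, 0 without scaling, 0 without the 5 arrays of uncertain treatment text and 0 with saline and naive rats pooled as control. Over all 12 comparisons the moderated F test called 3 genes and 0 without scaling. Valproic acid at day 5 went from 0 to 1 (Dhcr7) with the Gapdh ratio as a covariate and to 1 with the pooled control, which also gave 1 (Dhcr7) for cadmium at day 5. Leaving out 1 rat at a time gave 0 to 1 for tobramycin and for valproic acid at day 1, and 0 to 1 for valproic acid and for cisplatin at day 5. For effects that differ between the sexes it gave 0 in every fit but the one without 1F105, which leaves 1 saline female of day 5. Of 27 genes called between the sexes, 12 were called in control rats only and 8 at a difference of at least 1.5-fold. With the adipocyte score as a covariate the Scd difference was 0.16 and no longer passed (limma, adjusted p = 0.579). These 3 alternatives were chosen after seeing the data. Without scaling 9 of 10 correlations passed, against 5; with the Gapdh covariate Srebf2 with Sqle passed (0.30) and Srebf1 with Fasn did not, nor did the latter without the 5 arrays. Idi1, Fdft1, Dhcr7, Hsd17b7, Sqle, Abcg1, Scap and Acaca kept their direction and call between the sexes under the 11 alternatives run for each. All of these used the brightest probe set of the gene, and a dimmer probe set of Abcg1, of Scap and of Acaca did not pass. In control rats only, Scd, Abca1, Fasn, Insig1 and Acly did not pass. No paired analysis was possible because the rat codes tie no animal of one group to an animal of another. Scd, mostly under the limit of 33.1, is limited by its low signal.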
